A study of Homo sapiens with 9 samples.

Results

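The transcriptome of MCF-10A cells expressing ERK2 D319N was compared with that of cells carrying an empty vector, on 6 of the 9 whole-transcript Affymetrix arrays of the study. MCF-10A is an established, non-tumorigenic human breast epithelial line. Both groups of 3 replicates carried a Tet-on system and received doxycycline, and RNA was taken after 7 days. All cells grew on plastic in DMEM/F12 with 5% donor horse serum, EGF at 20 ng/ml, insulin at 10 µg/ml, hydrocortisone at 0.5 µg/ml and cholera toxin at 100 ng/ml. The other 3 arrays, from cells expressing ERK2 Y261A, entered the estimate of the spread and a direct test of D319N against Y261A. The labels call the 3 RNAs of a condition individual replicates but name no separate cultures or clones, and p-values therefore cover no more than the differences among these RNAs, some of which may be technical. The account covers all 22411 genes with a row of their own, and leaves the genes of the epithelial-mesenchymal switch aside where it names single genes.

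ERK2 is the last kinase of the RAS, RAF and MEK cascade and phosphorylates transcription factors, kinases and cytoskeletal proteins. The aspartate replaced in D319N belongs to its common docking domain, which holds MEK, several ERK phosphatases and kinases such as RSK through their D motifs, and the substitution is the counterpart of the Drosophila sevenmaker allele. The tyrosine replaced in Y261A belongs to a separate pocket that binds DEF motifs, so the Y261A group is a second docking mutant and not a wild-type control. In breast epithelium ERK signalling is known for its part in growth, motility and survival.

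Values are log2 RMA signals, so a difference of 1 is 2-fold. The 23 background probe sets averaged 4.85, with single values from 1.63 to 12.16. A level under that mean is read as near background, but the mean is no detection limit. Replicate arrays correlated at 0.9957 to 0.9977 in D319N and at 0.9977 to 0.9986 in vector, and the median SD of a gene was 0.067 and 0.036. The level of the induced construct was not analysed here, and ERK1 (MAPK3) differed by 0.0033 (adjusted p = 0.915). Of 14 breast epithelial markers tested, 13 were above background in vector and 13 in D319N cells, and 7 fell. Of 17 fibroblast and muscle markers 4 rose, and their mean level went from 5.56 to 5.59 on the vector arrays to 6.09 to 6.10 on the D319N arrays. Leukocyte markers (1 of 15 higher and 1 lower) and endothelial markers (0 of 12 called by limma, 1 at an unadjusted p under 0.05) had mean levels of 5.27 to 5.32 and 5.36 to 5.42 in vector and 5.26 to 5.30 and 5.30 to 5.40 in D319N. The part of these markers in the results below was not tested, and in such bulk RNA fewer cells of a type and less RNA per cell cannot be told apart.

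A gene was called at a limma adjusted p under 0.05 over all genes. By this rule 3718 genes (16.6%) differed, 2002 higher (8.93%) and 1716 lower (7.66%) in D319N, and those shares are the background for every count of family members given here. The higher calls included 155 genes (0.692%) that differed at least 2-fold, and the lower calls 40 (0.178%), so most differences were small. The median difference over all genes was -0.0255. Where 0 members of a family were called in a direction, the number at an unadjusted limma p under 0.05 follows as "0 (3 unadjusted)". Family counts of 0, 1 or 2 moved by at most 2 genes when any 1 array was left out, except where stated. Several moved further when D319N replicate 2 and Y261A replicate 3 were left out together. The lower count then went from 0 to 10 for cytokine receptors and from 0 to 9 for iron, zinc and copper genes. For leucine-rich repeat and neuronal-type adhesion proteins it went from 0 to 7, while for protocadherins it stayed at 0. With the arrays centred on their medians, 1961 genes were higher and 1126 lower. Among 17154 protein-coding genes 1864 were higher and 1432 lower, and among 5257 others 138 were higher and 284 lower. Against Y261A, 3281 genes differed (14.6%), 2224 higher (9.92%) and 1057 lower (4.72%) in D319N.

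**Figure D1:**
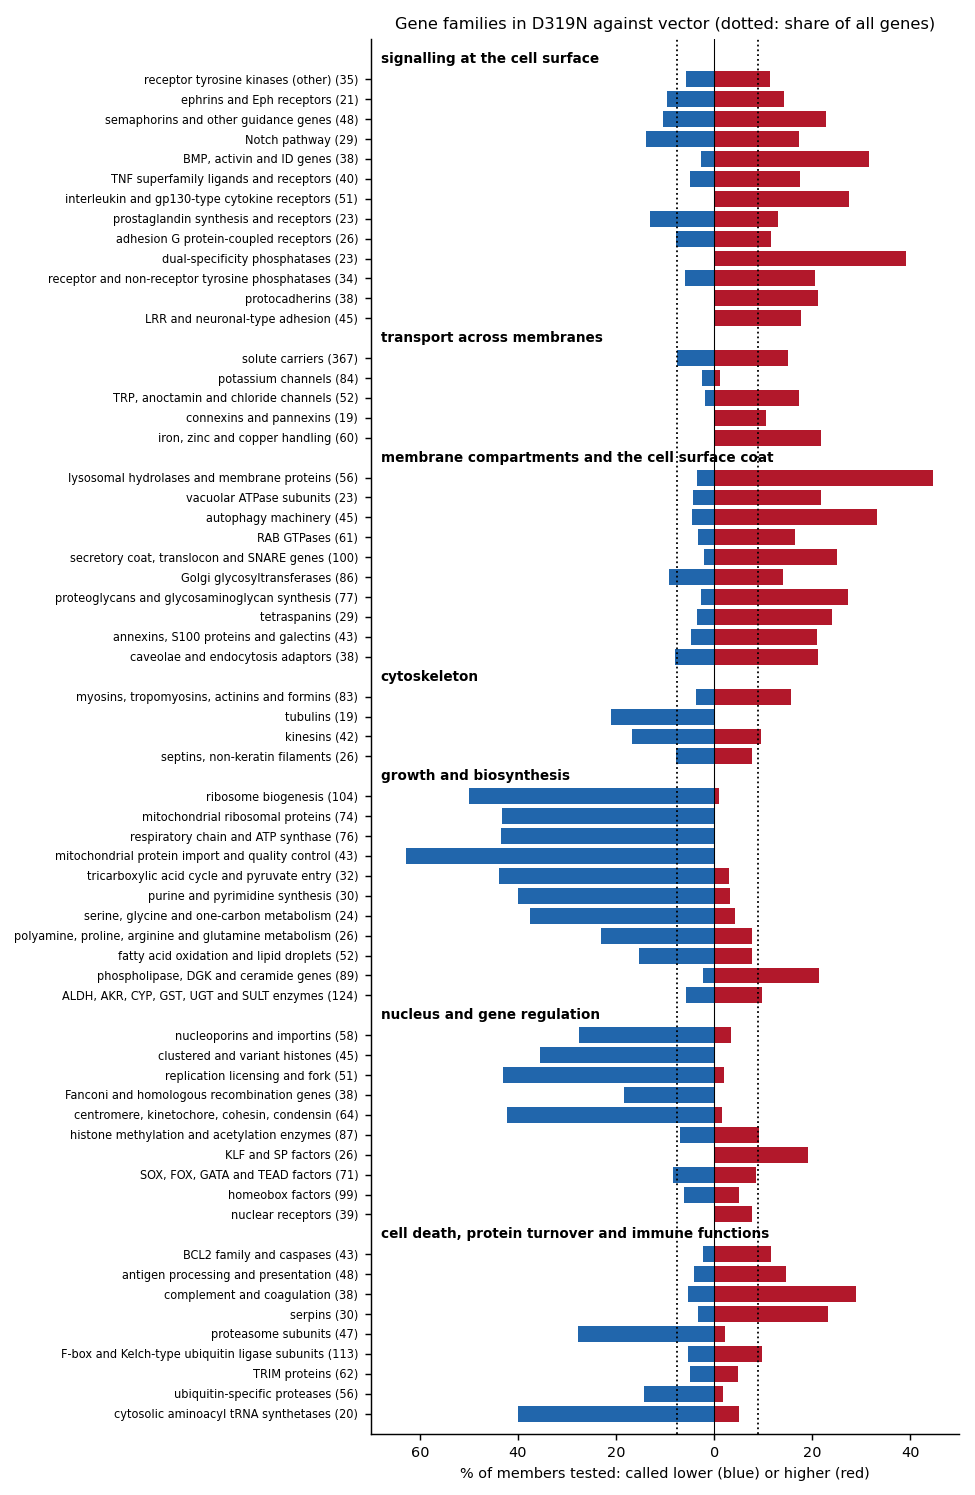
Share of the members of 62 gene families called higher (red, right) or lower (blue, left) in D319N against vector, as a percentage of the members tested, which are counted in brackets. Dotted lines mark the shares of all genes, 8.93% higher and 7.66% lower. The ribosome, mitochondrial and replication families lean to the left, and the lysosomal, autophagy and dual-specificity phosphatase families to the right.

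The rises outside the epithelial-mesenchymal genes were led by genes of unrelated functions: a steroid enzyme, receptors, adhesion proteins and a ubiquitin ligase subunit. HSD17B2, which oxidises estradiol to estrone, stood at 5.99, 6.08 and 6.01 on the vector arrays and at 10.63, 10.47 and 10.62 on the D319N arrays. SLITRK6, a leucine-rich repeat protein of neurons and the inner ear, read 4.56, 4.38 and 4.36 in vector and 7.52, 7.43 and 7.71 in D319N. Neither gene's groups overlapped, and SLITRK6 was below the background mean in vector, so its fold is imprecise. FBXO32, the muscle atrophy ubiquitin ligase subunit also called atrogin-1, read 5.85, 6.01 and 5.92 against 8.45, 8.43 and 8.59 (log2 difference 2.56 ± 0.09 SE, adjusted p = 6.67e-06). S1PR3, a G protein-coupled receptor for sphingosine 1-phosphate, read 6.14, 6.04 and 6.47 against 8.74, 8.32 and 8.97 (2.46 ± 0.18, adjusted p = 0.00017). In each case the lowest D319N array was above the highest vector array.

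The rest of the 20 largest rises ran from 1.77 to 3.24, and they too had groups that did not overlap, as the naming rule required. Signalling proteins among them were the EGFR ligand EREG (2.28), the receptor tyrosine kinase ROS1 (2.19), the nicotinic receptor subunit CHRNA9 (2.17), the kinase scaffold AKAP12 (2.39) and the insulin receptor adaptor IRS2 (1.93). CHRNA9 averaged 4.08 in vector, below the background mean, so its fold is imprecise. Secreted factors were the glycoprotein hormone STC1 (2.01), the lipoprotein lipase inhibitor ANGPTL4 (1.90) and the neutrophil chemokine CXCL8 (2.10). ANTXR2, a matrix-binding receptor that anthrax toxin uses, rose by 2.06 and the immediate early factor EGR1 by 1.77. TUT7, which adds uridines to the ends of RNAs and thereby marks them for decay, rose by 1.87, and AOX1, an aldehyde oxidase, by 1.79. IL1RL1, RASSF8, SLC46A3 and NRCAM complete the set. All 20 were also higher than in Y261A cells (limma, adjusted p under 0.05), against 9.92% of all genes, and all 20 stayed called under each of the 19 processing alternatives. The 20 were picked as the largest differences on the same D319N arrays, so neither count is independent support. STC1 and EGR1 differed by 2.35 and 1.90 from Y261A, while HSD17B2 differed by 2.24 from Y261A and by 4.55 from vector.

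**Figure D2:**
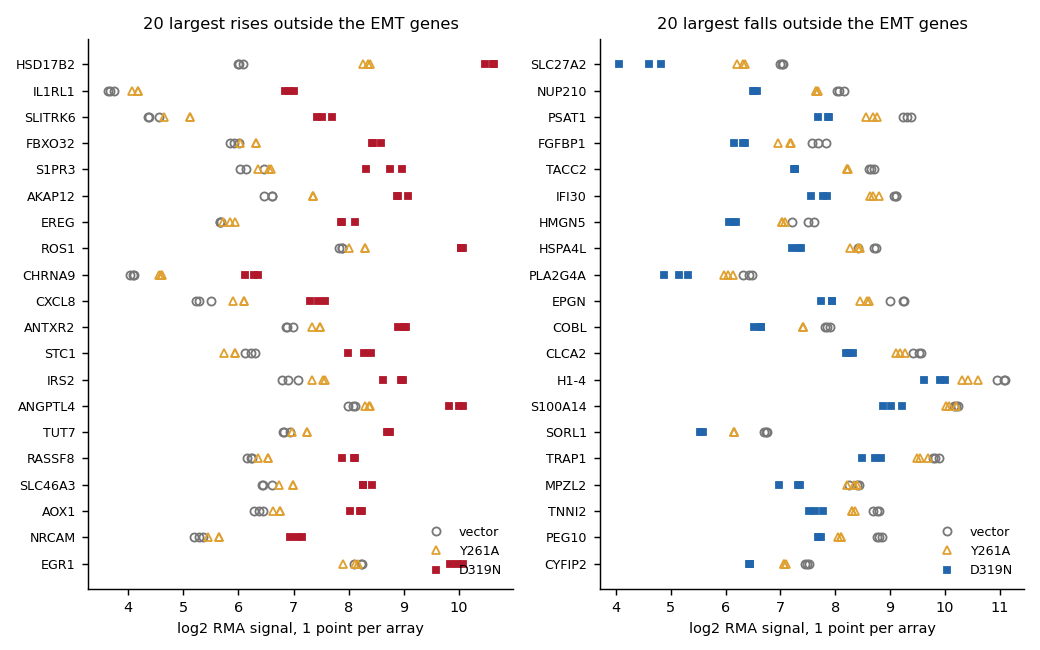
Log2 RMA signal on each array for the 20 largest rises (left) and 20 largest falls (right) among called protein-coding genes outside the epithelial-mesenchymal genes, with vector as open circles, Y261A as open triangles and D319N as filled squares. No D319N array overlaps a vector array in any gene. The filled squares of HSD17B2 lie at 10.47 to 10.63.

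The falls were smaller, from 1.04 to 2.53 in size, and joined metabolic enzymes, nuclear proteins and growth factors. SLC27A2, an acyl-CoA synthetase for very long chain fatty acids, read 7.03, 6.99 and 7.05 in vector and 4.61, 4.05 and 4.82 in D319N (-2.53 ± 0.17 SE, adjusted p = 0.000129), which brought it below the background mean. NUP210, a membrane glycoprotein of the nuclear pore, read 8.03, 8.07 and 8.16 against 6.57, 6.51 and 6.52. PSAT1, the aminotransferase of serine synthesis, read 9.38, 9.32 and 9.24 against 7.87, 7.68 and 7.88. The groups lay apart in all 3 genes. Nucleosome and chaperone genes followed: HMGN5 (-1.32), the linker histone gene H1-4 (-1.20), the HSP110-type chaperone HSPA4L (-1.32) and the mitochondrial HSP90 chaperone TRAP1 (-1.15). Secreted or surface proteins among the falls were FGFBP1, a carrier of fibroblast growth factors (-1.42), the EGFR ligand EPGN (-1.29), the calcium-binding S100A14 (-1.17), the adhesion protein MPZL2 (-1.14) and CLCA2 (-1.25). The enzymes IFI30, a thiol reductase of lysosomes, and PLA2G4A, which releases arachidonic acid, fell by 1.37 and by 1.30. TACC2 (2.64-fold lower), COBL (-1.25), SORL1 (-1.17), TNNI2 (-1.11), PEG10 (-1.08) and CYFIP2 (-1.04) made up the 20, and all of them stayed called under the 19 alternatives. All 20 were also lower than in Y261A cells, against 4.72% of all genes. As with the rises, the genes were picked on the same D319N arrays, so neither count is independent support.

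Receptors and their negative regulators gave many of the higher calls at the cell surface. Of 51 interleukin and gp130-type cytokine receptors 14 rose and 0 (3 unadjusted) fell, with a list median of -0.0248 near that of all genes, so a subset moved. IL1RL1, which binds interleukin-33, read 3.63, 3.66 and 3.74 in vector and 6.91, 6.85 and 7.00 in D319N. Its vector level was below the background mean, so its fold is imprecise. IL6ST, the gp130 subunit shared by the interleukin-6 family, read 8.34, 8.33 and 8.18 against 9.20, 9.17 and 9.17 (0.90 ± 0.08, adjusted p = 0.000346). No array overlapped between the groups for either, and IL1R1 (1.17) and IL13RA1 (0.71) rose as well.

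Dual-specificity phosphatases, several of which dephosphorylate MAP kinases, rose in 9 of 23 and fell in 0 (4 unadjusted), with a median of 0.10 that stood above that of all genes. DUSP10, which acts on JNK and p38, read 6.92, 6.89 and 6.92 in vector and 7.97, 7.87 and 7.99 in D319N (1.03 ± 0.04, adjusted p = 1.46e-05). DUSP4, a nuclear ERK phosphatase, rose by 0.76 ± 0.11, DUSP22 by 0.67 and DUSP5 by 0.36. DUSP6, the cytoplasmic ERK phosphatase, went from 7.64 ± 0.06 to 8.11 ± 0.11 (SD, n = 3), a difference of 0.47 ± 0.08 (adjusted p = 0.0082). DUSP6 was chosen after its values were seen. The count was 5 without D319N replicate 1 or 3 or without vector replicate 1 or 2, and 10 without D319N replicate 2. Upstream and beside ERK, the kinase gene MAP2K1 (MEK1) rose by 0.44 ± 0.07 (adjusted p = 0.00291), MAP2K2 differed by -0.043 (adjusted p = 0.409), the RSK gene RPS6KA1 fell by 0.28 and RPS6KA3 differed by 0.10 (adjusted p = 0.515). Of 34 tyrosine phosphatases 7 rose, among them PTPRE (0.73) and PTPRM (0.84), and 2 fell.

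Genes of the BMP and activin branch of TGF-beta signalling rose in 12 of 38 and fell in 1. INHBA, the activin A subunit, read 5.22, 5.50 and 5.81 in vector and 7.55, 7.26 and 7.39 in D319N (1.89 ± 0.15, adjusted p = 0.000204). The vector arrays spread widely for this gene but stayed below every D319N array. BMP6 (1.06) and the activin antagonist FSTL3 (0.80) rose as well. Among 48 semaphorins, plexins and other axon guidance genes 11 rose and 5 fell. The semaphorin co-receptor NRP1 read 6.50, 6.49 and 6.67 in vector and 8.21, 7.99 and 8.28 in D319N, and the netrin NTN4 (2.84-fold) and SEMA3C (1.10) rose, while SEMA4D fell by 0.31.

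Adhesion proteins best known from neurons had higher calls and 0 lower ones (0 unadjusted for the first family and 2 for the second): 8 of 38 protocadherins rose, with PCDH9 (0.98), and 8 of 45 leucine-rich repeat and neuronal-type adhesion proteins, with NRCAM (1.77), FLRT3 (0.78) and AMIGO2 (0.61). Most protocadherins were dim, with 8 of 38 above the background mean. Their count was 5 without D319N replicate 3, Y261A replicate 1 or 2, or vector replicate 2 or 3. The clustered protocadherin genes share sequence, and rows of near-identical members are uncertain.

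Several surface families had shares of calls nearer to the background. Receptor tyrosine kinases outside the EGFR and ephrin families were higher in 4 of 35, with AXL at 1.10, and lower in 2. Ephrins and Eph receptors were higher in 3 of 21, with EFNB2 at 1.15, and lower in 2, and 1 was higher without D319N replicate 3 or any 1 vector array. In the Notch pathway 5 of 29 were higher and 4 lower, with NOTCH2 at 0.64 and NOTCH1 at -0.42, so these paralogous receptors moved in opposite directions. TNF superfamily genes were higher in 7 of 40, with the death receptor TNFRSF10D (0.92), and lower in 2, with the ligand CD70 (-0.90). Both the Notch and the TNF counts of higher genes dropped without vector replicate 1 or 2, to 3 and to 4, and the TNF count of lower genes was 5 without D319N replicate 2. Prostaglandin genes (3 of 23 higher, 3 lower) and adhesion G protein-coupled receptors (3 of 26 higher, 2 lower) included the prostaglandin-degrading HPGD (0.44) and ADGRG1 (-0.58).

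Among the membrane compartments, lysosomes and autophagosomes had the highest shares of higher calls. Of 56 lysosomal hydrolases and membrane proteins measured, out of 66 listed, 25 rose (44.6%) and 2 fell, with a median of 0.13. The cathepsin protease CTSB read 8.85, 8.83 and 8.84 in vector and 10.38, 10.28 and 10.43 in D319N (1.53 ± 0.04, adjusted p = 1.89e-06), with no overlap. The cathepsin CTSL rose by 0.60 and the lysosomal tetraspanin CD63 by 0.66, while LAPTM4B, a membrane protein of late endosomes, fell by 0.49. The count held at 20 to 27 when any 1 array was left out. In the Y261A arrays, read against the same 3 vector arrays, the list median was -0.012, and 28 members were higher in D319N than in Y261A.

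Autophagy genes rose in 15 of 45 and fell in 2, with a median of 0.13. GABARAPL1, an ATG8-type protein that coats autophagosomes, read 6.74, 6.67 and 6.63 in vector and 7.87, 7.68 and 7.91 in D319N. WIPI1, which binds the phosphoinositide of forming autophagosomes, read 7.02, 7.02 and 7.10 against 8.28, 8.05 and 8.39. All D319N arrays were the higher ones in both, and MAP1LC3B (0.57) and the receptor OPTN (0.84) rose as well. Of 23 subunits and accessory proteins of the proton pump that acidifies these compartments 5 rose and 1 fell, with ATP6AP2 at 0.68, and 3 rose without D319N replicate 1.

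**Figure D3:**
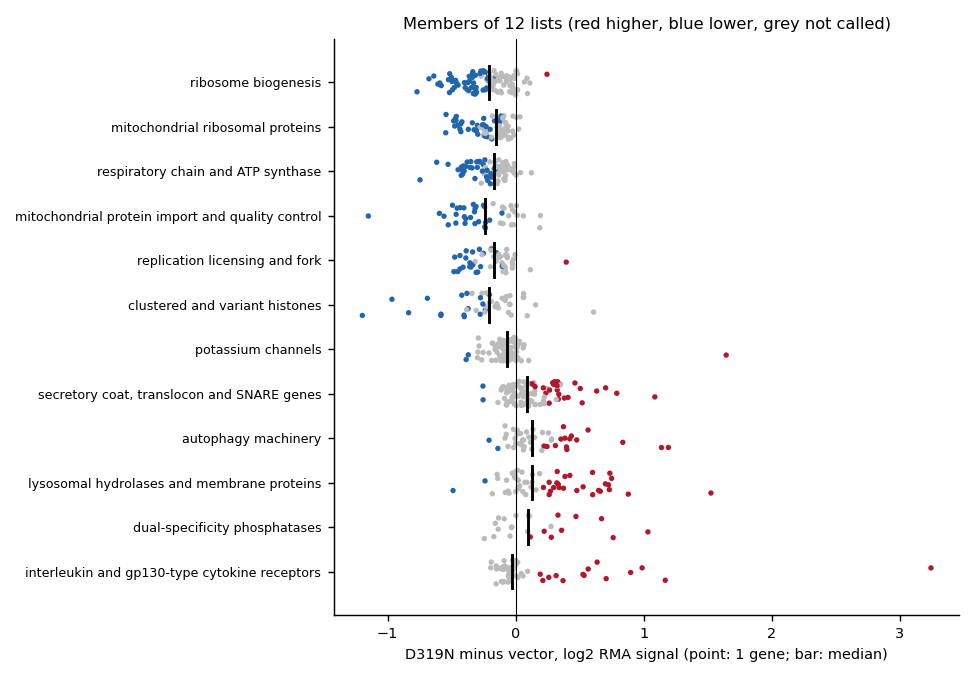
D319N minus vector difference in log2 RMA signal of every member tested in 12 of the lists, 1 point per gene, with called genes in red or blue and the list median as a bar. The medians of the growth lists lie left of 0, down to -0.24, while the cytokine receptors are a subset with large positive values and a median of -0.0248.

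Promoters of the lysosomal genes were examined for the letters TCACGTGA, the palindrome at the core of the CLEAR element through which TFEB-family factors are known to act on lysosomal genes. The window ran from 250 bases before to 50 bases after the gene start in RefSeq (GRCh38.p14), both strands were searched, and 13936 of 17154 protein-coding genes had a window. The palindrome was in 8 of 41 lysosomal promoters (19.5%) and in 1.48% of all promoters, and it was in 1.68% of the promoters of called higher genes. With windows for 41 of the 56 members measured, too few for the list, its share against all promoters is void as a check, and the count describes those promoters alone. The palindrome contains the shorter E-box CACGTG, which is taken up with ribosome biogenesis. The promoter of IGF2R, the receptor that carries mannose 6-phosphate enzymes to lysosomes, holds 3 matches, and its transcript rose by 0.48 ± 0.09 (adjusted p = 0.0102). It is shown as the called lysosomal member with the smallest p among those with a match, with the matches in capitals, written 5′ to 3′.
IGF2R (chr6:159968832-159969131, plus strand): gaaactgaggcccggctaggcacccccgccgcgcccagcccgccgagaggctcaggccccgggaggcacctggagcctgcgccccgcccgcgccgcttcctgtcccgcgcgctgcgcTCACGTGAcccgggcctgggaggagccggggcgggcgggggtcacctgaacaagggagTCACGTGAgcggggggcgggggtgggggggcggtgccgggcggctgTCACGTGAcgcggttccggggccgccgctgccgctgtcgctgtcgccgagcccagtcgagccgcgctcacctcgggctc
A match is a run of letters in this window and was not tested as a binding site.

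Genes for the delivery of membrane proteins and the making of matrix sugars also rose. Of 100 coat, translocon and SNARE genes 25 rose and 2 fell (median 0.09), among them the SNAREs STX2 (0.79), VAMP3 (0.50) and STX3 (0.46) and the retrieval receptor KDELR3, which read 5.87, 5.95 and 5.87 in vector and 6.92, 6.76 and 7.26 in D319N. The count dropped to between 13 and 15 when D319N replicate 1, D319N replicate 3 or a vector array was left out. Of 77 proteoglycan and glycosaminoglycan genes 21 rose and 2 fell, with UGDH, which makes the UDP-glucuronate that these sugar chains need, at 0.91, and the hyaluronan synthase HAS2 at 1.43. HAS2 was near background in vector, at 4.24 to 4.26, and read 5.56 to 5.78 in D319N. The proteoglycan decorin gene DCN (2.42), which also counts as a fibroblast marker, and CSGALNACT2 (0.89) rose too.

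Smaller families of this kind leaned the same way. Tetraspanins rose in 7 of 29 and fell in 1, with TSPAN5 at 1.03 and TSPAN1 at -0.77. Annexins, S100 proteins and galectins rose in 9 of 43 and fell in 2, with ANXA5 at 0.45, and 4 or 5 rose without D319N replicate 1 or 3 or vector replicate 1 or 2. Of 38 caveolar and endocytosis genes 8 rose and 3 fell, with DAB2 at 1.00 and LRP1 at 0.89, and 13 rose without D319N replicate 2. RAB GTPases were higher in 10 of 61 and lower in 2 (5 without D319N replicate 2). RAB31 read 5.56, 5.43 and 5.61 in vector and 7.17, 6.83 and 7.32 in D319N, while RAB38 (-0.74) and RAB17 (-0.61), which are known from pigment cells and epithelia, fell. Golgi glycosyltransferases were near the background, with 12 of 86 higher and 8 lower (4 and 5 without vector replicate 2 or 3), and GCNT1 at 1.01.

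Transport across the plasma membrane changed in particular genes more than in whole families. Of 367 solute carriers 55 rose and 28 fell. The cationic amino acid transporter SLC7A2 read 8.36, 8.26 and 8.31 in vector and 9.71, 9.64 and 9.77 in D319N (2.63-fold, adjusted p = 5.4e-05). The glutamate transporter SLC1A3 read 6.41, 6.35 and 6.37 against 5.42, 5.34 and 5.30 (-1.02 ± 0.03, adjusted p = 4.45e-06). These groups lay on opposite sides without overlap, and SLC46A3, a lysosomal transporter, rose by 1.82. Iron, zinc and copper genes rose in 13 of 60 and fell in 0 (0 unadjusted), with the metalloreductases STEAP1 (1.10) and STEAP3 (0.68) and the zinc transporter SLC30A4 (0.85), and 8 rose without vector replicate 2. Of 84 potassium channels 1 rose and 2 fell, well under the background, and 8 fell without D319N replicate 2. Most leaned lower without passing, with a median of -0.064, 71 members below 0 and 12 above. Without D319N replicate 2 and Y261A replicate 3 together 29 fell, so the count depends on the setting. The riser, KCNJ15, an inward rectifier, read 5.81, 5.48 and 5.71 against 7.35, 7.26 and 7.33. Of 52 TRP, anoctamin and chloride channel genes 9 rose, with the scramblase ANO6 (0.75), and 1 fell. Connexins and pannexins were higher in 2 of 19, including PANX1 (0.65), and lower in 0 (1 unadjusted), and 1 was higher without Y261A replicate 1 or 2 or any 1 vector array.

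The falls formed broad, shallow shifts in the machinery of cell growth. Ribosome biogenesis genes fell in 52 of 104 and rose in 1, with a median of -0.20 and 93 members below 0. NCL, the nucleolar protein nucleolin, read 10.66, 10.67 and 10.53 in vector and 10.06, 10.04 and 10.02 in D319N, and the nucleolar helicase DDX21 read 10.17, 10.17 and 10.04 against 9.57, 9.49 and 9.51. FBL, the methyltransferase fibrillarin, went from 9.60 ± 0.01 to 8.93 ± 0.12 (SD, n = 3; adjusted p = 0.000376). The falls of NCL, DDX21 and FBL were small but lay outside the spread of the arrays, while 51 of the 104 members were not called. The number called lower was 38 to 55 when 1 array was left out and 38 with centred arrays. MYC, whose product drives ribosome production and was chosen after its values were seen, read 10.25, 10.27 and 10.23 in vector and 9.58, 9.46 and 9.68 in D319N (-0.68 ± 0.05, adjusted p = 0.000242).

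Ribosomal protein genes themselves, a list also drawn up after values were seen, fell in 24 of 57 and rose in 0 (0 unadjusted; median -0.18; 13 fell without vector replicate 2 and 11 with centred arrays). Retropseudogenes share sequence with these genes, so their rows are uncertain. Purine and pyrimidine synthesis genes fell in 12 of 30 and rose in 1 (median -0.17), with the nucleoside diphosphate kinase NME1 (-0.57) and IMPDH2 (-0.57), the rate-limiting enzyme of guanine nucleotide synthesis. Serine, glycine and one-carbon genes fell in 9 of 24 and rose in 1, with PSAT1 (2.83-fold lower), MTHFD2 (-0.49) and PHGDH (-0.36). Cytosolic aminoacyl tRNA synthetases fell in 8 of 20 and rose in 1, with FARSB (-0.64), and 4 fell without vector replicate 2. Proteasome genes fell in 13 of 47 and rose in 1, with PSMG1 (-0.51) falling and the activator PSME4 (0.52) rising, and 7 fell without vector replicate 1 or 2. With centred arrays the falls were 7 for purine and pyrimidine genes and 7 for serine, glycine and one-carbon genes. They were 5 for tRNA synthetases and 6 for proteasome genes in that setting.

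The E-box CACGTG, which MYC and its partner MAX are known to bind, was in 33 of 88 ribosome biogenesis promoters (37.5%) and in 8.75% of all promoters. The E-box was also in 12 of 41 lysosomal promoters, 8 of which hold the longer palindrome that contains it. Matches were not tested as binding sites, and the part of MYC or of the E-box in these differences was not tested. The FBL promoter is shown as the called member with the smallest p among those with a match, with the E-box in capitals.
FBL (chr19:39846330-39846629, minus strand): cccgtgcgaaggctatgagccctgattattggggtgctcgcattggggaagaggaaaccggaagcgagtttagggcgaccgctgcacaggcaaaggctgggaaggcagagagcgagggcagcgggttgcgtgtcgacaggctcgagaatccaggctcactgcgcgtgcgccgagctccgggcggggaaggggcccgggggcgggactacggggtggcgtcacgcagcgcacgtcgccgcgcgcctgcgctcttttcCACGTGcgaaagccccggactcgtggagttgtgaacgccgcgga
RCL1, a member of the same list with its E-box just after the start, fell by 0.34 (adjusted p = 0.00131).

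Nuclear genes for mitochondria fell alongside. Import and quality control genes fell in 27 of 43 (62.8%) and rose in 0 (1 unadjusted), with a median of -0.24, and 19 fell with centred arrays. HSPD1, the HSP60 chaperonin, read 9.10, 9.11 and 8.95 in vector and 8.49, 8.48 and 8.41 in D319N, with its partner HSPE1 at -0.56 and the protease LONP1 at -0.40. The respiratory chain and ATP synthase list had 33 of 76 lower and 0 (0 unadjusted) higher, with a median of -0.17, and 18 were lower without vector replicate 2 and 17 with centred arrays. ATP5F1B, the catalytic beta subunit of ATP synthase, read 11.08, 11.14 and 11.03 against 10.59, 10.49 and 10.59. Every D319N array was lower than every vector array in both named cases. Mitochondrial ribosomal proteins fell in 32 of 74 and rose in 0 (0 unadjusted), with a median of -0.15 and MRPS15 at -0.54, and 20 fell with centred arrays. Tricarboxylic acid cycle genes fell in 14 of 32 and rose in 1, with DLAT at -0.65, and 10 fell with centred arrays.

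Other metabolic families were mixed. Polyamine, proline, arginine and glutamine genes fell in 6 of 26 and rose in 2. ODC1, which makes putrescine and starts polyamine synthesis, read 9.54, 9.57 and 9.58 in vector and 8.81, 8.71 and 8.87 in D319N. SAT1, which acetylates polyamines for export and breakdown, read 7.28, 7.20 and 7.14 against 8.78, 8.71 and 8.70 (1.52 ± 0.05, adjusted p = 5.6e-06). The first enzyme of synthesis was thus lower and that of breakdown higher on every array. Fatty acid oxidation and lipid droplet genes fell in 8 of 52 and rose in 4, with HADH at -0.50, PLIN3 at 0.80 and MGLL at 0.80. Without D319N replicate 2 the rises were 8, and without vector replicate 1 or 2 the falls were 3 or 5. Phospholipase, diacylglycerol kinase and ceramide genes rose in 19 of 89 and fell in 2, with PLD5 (1.06) and SGPL1 (0.58), which ends sphingosine 1-phosphate signalling by cleaving it, and 10 to 12 rose without D319N replicate 1 or vector replicate 1 or 2. Of 124 aldehyde, aldo-keto, cytochrome and conjugating enzymes 12 rose, with SULT1B1 (1.41) and AKR1C1 (0.71), and 7 fell; near-identical AKR1C genes share sequence and are uncertain.

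Genes of DNA replication and chromosome segregation fell by similar sizes. Replication genes were lower in 22 of 51 and higher in 1 (median -0.17; 13 lower with centred arrays), with POLD2, a subunit of DNA polymerase delta, at 8.43, 8.42 and 8.47 in vector and 8.03, 7.97 and 8.02 in D319N. Centromere, kinetochore, cohesin and condensin genes were lower in 27 of 64 and higher in 1 (median -0.16), and 16 were lower without vector replicate 2 and 17 with centred arrays. MAD2L1, the spindle checkpoint protein, read 7.64, 7.65 and 7.57 in vector and 7.26, 7.19 and 7.14 in D319N. CENPT (0.63) was the exception that rose. Kinesins were lower in 7 of 42, with the mitotic KIF20A (-0.57), and higher in 4 (1 without vector replicate 1 or 2, and 2 without D319N replicate 1 or 3). Fanconi and recombination genes fell in 7 of 38 and rose in 0 (0 unadjusted), with UBE2T (-0.55). Without D319N replicate 3 or vector replicate 2, or with centred arrays, 4 fell. SKP2, the ubiquitin ligase subunit that targets the CDK inhibitor p27, read 8.62, 8.67 and 8.55 against 7.77, 7.71 and 7.75.

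The letters TTTGAA of the cell cycle homology region, to which the DREAM complex and B-MYB are known to bind in mitotic promoters, were in 22 of 53 centromere and kinetochore promoters (41.5%) and in 12.1% of all promoters. They were in 13.6% of the promoters of called lower genes and in 1 of 44 replication promoters (2.27%). In all, 6 motifs were searched, and not every one is described here. The letters CCAAT were in 58.5% of the centromere and kinetochore promoters and 59.1% of the replication promoters, against 36.4% of all promoters. Whether any motif has a part in the falls was not tested. The promoter of MAD2L1 is shown by the same rule as that of FBL, as the member called lower with the smallest p among those with a match.
MAD2L1 (chr4:120066799-120067098, minus strand): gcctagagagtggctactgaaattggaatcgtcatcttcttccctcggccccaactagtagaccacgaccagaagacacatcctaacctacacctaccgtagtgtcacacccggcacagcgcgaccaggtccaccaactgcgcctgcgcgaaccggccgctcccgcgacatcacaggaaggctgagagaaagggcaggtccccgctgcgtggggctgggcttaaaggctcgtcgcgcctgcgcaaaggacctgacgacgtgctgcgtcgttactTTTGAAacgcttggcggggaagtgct
Its match lies just after the start, as does that in CENPF, which fell by 0.47 (adjusted p = 0.00143).

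Histone and nuclear envelope genes also fell. Of 45 clustered and variant histones 16 fell and 0 (1 unadjusted) rose, with a median of -0.21. The falls were 8 and 10 without vector replicate 2 and 3, and 12 with centred arrays. H1-4 read 10.96, 11.08 and 11.10 in vector and 9.92, 9.62 and 10.01 in D319N, and H2BC14 fell by 0.97. Clustered histone genes are near-identical and their rows are uncertain. Nucleoporins and importins fell in 16 of 58 and rose in 2, with NUP210 (-1.56) and the export factor CSE1L (-0.78). However, 8 to 10 fell without D319N replicate 1 or 2, Y261A replicate 2 or vector replicate 1 or 2, and 8 with centred arrays. LMNB1, a lamin of the nuclear lamina, fell by 0.67, in a list of septins and filament genes with 2 of 26 higher and 2 lower.

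Apart from the KLF and SP factors, transcription factor and chromatin families had shares of calls near or under the background. KLF and SP factors rose in 5 of 26 (19.2%, against 8.93% of all genes) and fell in 0 (1 unadjusted). KLF12 read 5.73, 5.92 and 5.72 in vector and 7.45, 7.28 and 7.35 in D319N, with KLF7 and KLF6 both at 0.88. Histone methylation and acetylation enzymes were higher in 8 of 87 and lower in 6, close to the background, and PRDM1, the BLIMP1 repressor, went from 5.24 ± 0.04 to 6.73 ± 0.10 (SD, n = 3). Both factors were above every vector array on each D319N array. SOX, FOX, GATA and TEAD factors were higher in 6 of 71, with SOX4 (1.11) and SOX9 (0.78), and lower in 6, with SOX7 (-0.67). Homeobox factors were higher in 5 of 99 and lower in 6, with IRX3 at -0.75, and nuclear receptors higher in 3 of 39 (0 without any 1 vector array, 1 without D319N replicate 3, 5 without Y261A replicate 3) and lower in 0 (5 unadjusted). Leaving out 1 array moved these counts: the higher SOX and homeobox counts to 3 (vector replicate 2), the lower SOX count to between 3 (vector replicate 2) and 10 (D319N replicate 2), and the lower homeobox count to 15 (D319N replicate 2) or 3 (D319N replicate 1 or vector replicate 1 or 2). The higher homeobox count was also 3 without D319N replicate 1. The chromatin counts dropped to 4 or 5 higher without D319N replicate 1, D319N replicate 3 or a vector array, and to 3 and 2 lower without D319N replicate 1 and vector replicate 2.

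Cytoskeletal families split by type. Myosins, tropomyosins, actinins and formins rose in 13 of 83 and fell in 3, with the paralogous motors MYO5A (0.72) and MYO5C (-0.83) in opposite directions. Tubulins fell in 4 of 19 and rose in 0 (4 unadjusted), with TUBA1B at -0.33. Without D319N replicate 1 or vector replicate 2 the falls were 2, without D319N replicate 2 the rises were 3, and with centred arrays 1 fell.

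Secreted protease control and immune genes had more higher than lower calls, with list medians of 0.0038 for complement and coagulation, -0.0027 for serpins and -0.028 for antigen presentation, so a subset moved. Complement and coagulation genes rose in 11 of 38 and fell in 2, with the complement inhibitor CD55 (0.87), the coagulation inhibitor TFPI (0.95) and the plasminogen activator PLAU (0.81) higher and clusterin (CLU, -0.54) lower. Serpins rose in 7 of 30 and fell in 1. SERPINE2, an inhibitor of thrombin and plasminogen activators, read 5.80, 5.83 and 5.79 in vector and 7.75, 7.62 and 7.61 in D319N. Antigen presentation genes rose in 7 of 48, with PDCD1LG2, the PD-L2 checkpoint ligand, at 0.98, and fell in 2, and 3 or 4 rose without D319N replicate 1 or vector replicate 2 or 3. BCL2 family and caspase genes rose in 5 of 43, with MCL1 (0.54), and fell in 1, and between 2 and 8 rose when 1 array was left out, with 2 without D319N replicate 1 or 3 or vector replicate 3, 3 without Y261A replicate 1 or vector replicate 2, and 8 without D319N replicate 2. F-box and Kelch subunits (11 of 113 higher, 6 lower), TRIM proteins (3 of 62 higher, 3 lower) and ubiquitin-specific proteases (1 of 56 higher, 8 lower) gave TRIM29 (-0.77), KLHL24 (0.56) and USP18 (-0.43). The lower USP count was 3 to 5 without D319N replicate 1 or 3 or vector replicate 1 or 2, and the lower F-box count 3 without D319N replicate 1 or 3. Without Y261A replicate 3 the higher counts of F-box subunits and ubiquitin-specific proteases were 17 and 8. Both TRIM counts were 5 without D319N replicate 2.

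Most non-coding genes did not pass, but a few small RNAs changed strongly. The rows of miRNA genes measure the gene or precursor and not the mature miRNA. MIR21, whose product is known to repress tumour suppressor genes, read 5.44, 5.10 and 5.35 in vector and 7.17, 6.97 and 7.22 in D319N (1.82 ± 0.20, adjusted p = 0.000955). MIR29A, whose product is known for repressing collagen genes, read 3.67, 3.62 and 3.63 against 5.32, 5.09 and 4.88, so that it crossed from below the background mean. MIR221, chosen after its values were seen, read 5.23, 5.47 and 5.71 against 6.15, 6.02 and 6.20 (0.65 ± 0.13, adjusted p = 0.0118). No array overlapped between groups in any of these genes. The mature products (RefSeq, GRCh38.p14) are shown with the seed, bases 2 to 8, in capitals.
hsa-miR-21-5p (chr17:59841273-59841294, plus strand): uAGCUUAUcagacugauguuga
hsa-miR-29a-3p (chr7:130876748-130876769, minus strand): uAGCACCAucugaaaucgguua
hsa-miR-29a-5p (chr7:130876786-130876807, minus strand): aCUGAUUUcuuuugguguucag
hsa-miR-221-3p (chrX:45746180-45746202, minus strand): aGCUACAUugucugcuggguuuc
The seeds differ from one another, so these products form no shared seed family. Over all 1041 miRNA genes tested, 15 were higher and 19 lower, far under the background of all genes. The 5257 genes that are not protein-coding, which include these, had 138 higher and 284 lower. Leaving out 1 array moved the miRNA counts. The higher count was 6 without vector replicate 2, 9 without D319N replicate 1 and 26 without D319N replicate 2. The lower count was 67 without D319N replicate 2, and 9 to 11 without D319N replicate 1 or 3, Y261A replicate 1 or vector replicate 1 or 2.

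The SNORD116 snoRNAs, C/D box RNAs in an imprinted cluster on chromosome 15 whose paternal loss is linked to Prader-Willi syndrome, were higher in 11 of 19 rows and lower in 0 (0 unadjusted), with a median of 0.78. Of these rows 9 were above the background mean, and called rows such as SNORD116-1 (0.51, adjusted p = 0.0411) and SNORD116-25 (0.72, adjusted p = 0.0293) were below it in both groups, so their differences are imprecise. SNORD116-17 read 7.98, 8.23 and 7.93 in vector and 9.30, 8.88 and 9.35 in D319N, and SNORD116-15 read 8.27, 8.33 and 7.92 against 9.36, 9.05 and 9.37. The copies are near-identical, so the rows share signal and are no independent observations. In Y261A the family median was -0.17 against the same vector arrays, and 12 rows were higher in D319N than in Y261A. The SNORD115 copies of the neighbouring cluster were called in 0 of 31 rows in either direction by limma (1 at an unadjusted p under 0.05), and 1 was called without D319N replicate 2, Y261A replicate 2 or vector replicate 3. None of these 31 rows was above the background mean, and the difference between the clusters was not tested.

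**Figure D4:**
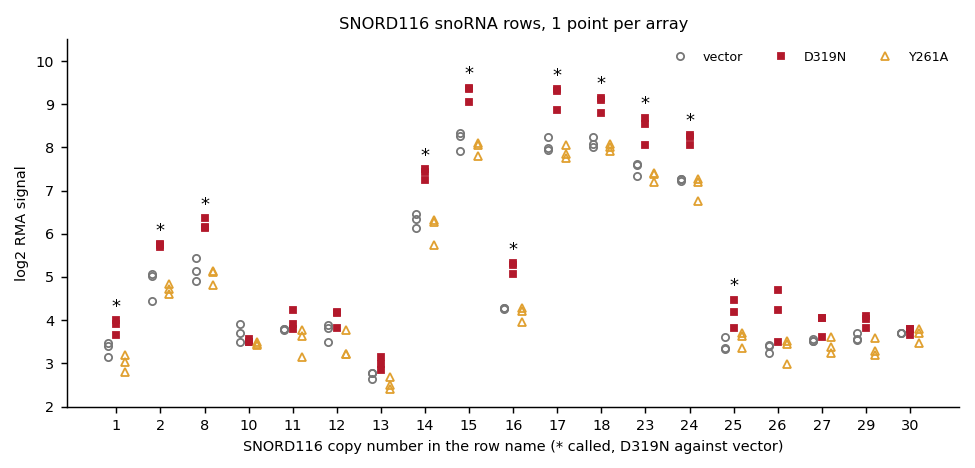
Log2 RMA signal of the 19 SNORD116 rows on each array, ordered by copy number, with vector as open circles, D319N as filled squares and Y261A as open triangles. Asterisks mark the 11 rows called higher in D319N than in vector.

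Among families of small RNAs, the U snRNAs, Y RNAs and 5S rRNA copies had low shares of higher calls. So did the genes that are not protein-coding as a whole, with 138 of 5257 higher. These families were formed after the values were seen. U snRNA genes and copies fell in 42 of 213 and rose in 6, and 25 or 26 fell without vector replicate 2 or 1, while 1 to 3 rose without D319N replicate 1, Y261A replicate 2 or any 1 vector array, with the spliceosomal gene RNU5D-1 at -1.18. Y RNA genes and copies fell in 12 of 56 and rose in 0 (0 unadjusted), with 6 or 7 falls without D319N replicate 3, Y261A replicate 1 or vector replicate 1 or 2. The 5S rRNA pseudogene copies fell in 51 of 488, and in 33 without D319N replicate 1, against 2 that rose (8 without vector replicate 3). Other C/D box snoRNAs (4 of 124 higher, 10 lower), H/ACA snoRNAs (5 of 64 higher, 9 lower) and Cajal body RNAs (2 of 21 higher, 0 lower, 1 unadjusted) had few calls, with other C/D box RNAs under the background for higher calls (3.23%) and H/ACA RNAs above it for lower calls (14.1%). SCARNA7 read 8.91, 8.60 and 8.68 in vector and 10.35, 10.24 and 10.21 in D319N. The C/D count of lower genes was 6 without vector replicate 1, and that of higher genes 1 or 2 without D319N replicate 1, D319N replicate 3 or a vector array, and the H/ACA count of higher genes 3 without D319N replicate 1 or 3 or vector replicate 1 or 2. These RNAs occur in many near-identical copies, so single rows are uncertain. Long non-coding RNA genes were higher in 49 of 1937 (31 without vector replicate 2) and lower in 46 (111 without D319N replicate 2, and 21 to 27 without D319N replicate 1 or any 1 vector array), among them MIR31HG (1.17), LINC00707 (1.11) and UCA1 (1.00, chosen after its values were seen) higher and DANCR (-0.94) lower.

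Rows of processed pseudogenes moved with their parent genes, whose probes they may share, so the source of the signal is uncertain. Of 7 HMGN2 pseudogene rows 6 fell, and HMGN2, a nucleosome-binding protein gene, fell by 0.72. All 3 FABP5 pseudogene rows fell with FABP5 (-0.46), and both TMSB4X pseudogene rows rose with TMSB4X, the thymosin beta 4 gene (0.77). The parents were chosen after their values were seen. OCLNP1 fell by 1.73 and AK4P3 by 1.02.

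Most of the families that fell in D319N also had lower medians in Y261A, read against the same 3 vector arrays, which both comparisons share. The respiratory chain median was -0.17 in D319N and -0.14 in Y261A, and 7 of 76 members were lower in D319N than in Y261A by the direct test. Over all genes 4.72% were lower in that test, which is the background for the counts of lower members that follow. For ribosome biogenesis the medians were -0.20 and -0.11, and 25 of 104 members were lower in D319N and 1 higher. Proteasome subunits (-0.098 and -0.10) and tRNA synthetases (-0.14 and -0.15) had near-equal medians, with 1 member of each lower in D319N. Mitochondrial import genes had medians of -0.24 and -0.12, with 12 of 43 lower in D319N than in Y261A, and replication genes -0.17 and -0.074, with 14 of 51 lower. Several families that rose in D319N had medians near 0 in Y261A, and a list median under 0.05 in size is given no direction. Autophagy had medians of 0.13 and -0.035, with 15 members higher in D319N than in Y261A, and secretory genes 0.091 and -0.0497, with 34 higher. Of the lysosomal genes 28 were higher, and the share over all genes was 9.92%. Other rising families had D319N minus Y261A medians near 0, at 0.014 for BMP and activin genes, 0.0051 for proteoglycan genes and -0.038 for cytokine receptors, although 10, 23 and 13 of their members were higher than in Y261A. D319N replicate 2 and Y261A replicate 3 deviated alike from their group means (r = 0.60 across genes, which are not independent replicates). Without both of them 3527 of all 22411 genes were higher in D319N than in vector and 4452 lower, against 2002 and 1716 with all arrays. The lysosomal and autophagy counts of higher genes were then 33 and 29. Counts of lower genes grew in other families, to 13 for proteoglycan genes and to 102 for solute carriers.

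**Figure D5:**
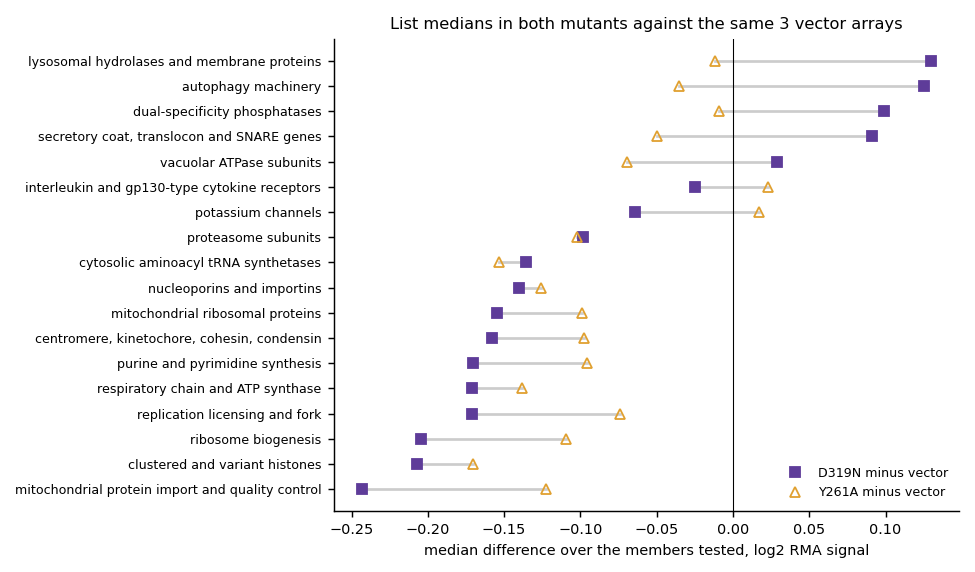
Median difference from vector, in log2 RMA signal over the members tested, for 18 lists in D319N (filled squares) and in Y261A (open triangles), both against the same 3 vector arrays. The growth lists lie left of 0 in both mutants. The lysosomal, autophagy, phosphatase and secretory lists lie right of 0 in D319N and within 0.05 of it in Y261A, a size that is given no direction.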

How the data were processed

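The authors deposited log2 RMA signals. Per the submitters' processing notes, RMA was run in Affymetrix Expression Console 1.4, which equalises the probe distributions of the arrays and summarises probes by median polish. No build for the array design was found in these sources. The platform annotation gave a single gene symbol to 23781 of 70523 rows. After 306 symbols were updated through a RefSeq table (GRCh38.p14; 4 could not be matched), the row with the highest mean stood for each of the 528 genes with several rows, which left 22411 genes, 17154 of them protein-coding. Median polish gave tied values within a group for 14207 genes (63.4%), so their spread may be understated.

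The comparisons used limma 3.58.1 (R 4.3.3) with a mean per group over all 9 arrays, moderated variances (6 residual and 1.23 prior degrees of freedom) and Benjamini-Hochberg adjustment over all genes. Errors of differences are moderated standard errors. The script was tested on simulated data. Named are the 20 largest rises and falls among called protein-coding genes without overlap and outside 199 epithelial-mesenchymal genes, the same for 10 non-coding genes each way, up to 4 members with the smallest p of each of 64 lists, and 8 fixed genes; genes outside this rule are said to be, except members shown for their promoters. Members and lists were chosen with earlier results of these data known, and 14 further families after values were seen. Lists are described by counts and medians, with no set test, and a pair of the lists is not reported here. Precision is limited by having 3 arrays a group. The 19 alternatives left out arrays or changed the scaling, filter, row choice, moderation, weights or block.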

Additional observations from a re-analysis of the deposited data

Results flagged for a closer look

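A further signal lay in rows that name no single gene and entered no comparison above. In a limma fit over all rows other than controls, 2582 of 43669 rows with no gene symbol passed between D319N and vector (5.91%), 1018 higher and 1564 lower. Of 1543 rows with several symbols 226 passed (14.6%), 93 higher and 133 lower, against 12.9% of rows with 1 symbol in the same fit. The rows with no symbol included differences from -3.10 to 4.76 on the log2 scale. They are given as counts, with no gene assigned.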

How the results depend on the processing

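Of 306 called genes that the naming rule picked, 279 stayed called in the same direction under all 19 alternatives, with 24 lost under a floor on the spread of tied genes and 11 without vector replicate 2. The number of genes called was 3718 in D319N against vector and 2523 to 4572 when 1 array was left out, with 1393 to 2469 higher, 1130 to 2103 lower and 189 to 220 differing at least 2-fold. Against Y261A it was 1941 to 5302. Array weights gave 11631 genes (4459 higher, 7172 lower; 10403 against Y261A), and leaving out D319N replicate 2 together with Y261A replicate 3 gave 7979 (3527 higher, 4452 lower; 6259 against Y261A). Centring left 1126 lower genes. The cause was not tested. The replicate number as a block gave 3063 genes (2490 against Y261A, from 3281). Same-numbered D319N and vector arrays deviated together at r = 0.0017, 0.0163 and 0.110, and differently numbered ones at -0.0971 to 0.0863. The labels state no pairing, and such correlations cannot settle whether same-numbered samples were handled together. The median of the Cajal body RNAs (0.082) turned to -0.012 with genes near background left out, and MAPK3, level in the reported fit, read -0.038 after a further quantile normalization (adjusted p = 0.572). Signal near background limits the folds of dim genes.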
